A study of Mus musculus with 14 samples.

Results

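10 transcription factors and cofactors that mark or build the early kidney are described here in mouse embryonic stem cells (ESCs) with and without knockdown of Dis3l2, a 3′ to 5′ exoribonuclease that degrades uridylated RNA. The genes were listed by name (Osr1, Osr2, Wt1, Pax2, Pax8, Lhx1, Six2, Eya1, Sall1 and Gata3), in a list drawn up with earlier results of these data known, and all 10 were found among the 50686 genes counted. From d8 of differentiation onward, the knockdown line held more Osr1, Wt1 and Gata3 RNA and less Lhx1 and Sall1 RNA than the control line, Osr2 followed Osr1 from d10, and Pax2 and Pax8 stayed at the edge of detection in both lines.

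The study differentiated ESCs into embryoid bodies (EBs), aggregates in which the germ layers arise without directed signals, to ask how loss of DIS3L2 alters differentiation. Undifferentiated ESCs in LIF/2i medium (d0) and EBs sampled every other day from d2 to d12, formed in hanging drops after LIF/2i removal in the presence of serum, were sequenced as polyA RNA. The 2 lines carry a short hairpin RNA against LacZ (shLacZ, the isogenic control) or against Dis3l2 (shDis3l2), and the study describes the parental mESC line as carrying an Osr1-GFP reporter, so both groups share it. How the reporter was built, and whether each line is 1 clone, are not given in the sources used here. There was 1 library for each line and day, 14 in all, so no single day has a replicate check, no p-value is given for a day, and each interval covers counting error only.

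The intermediate mesoderm lies between the paraxial and the lateral plate mesoderm and gives rise to the kidney and its ducts. Osr1 is one of its earliest markers and is also expressed in lateral plate mesoderm, while Lhx1, Pax2, Pax8 and Gata3 act in the nephric duct, the epithelial tube that later gives the ureteric bud. Wt1, Eya1, Sall1, Osr1 and Six2 act in the metanephric mesenchyme around that bud, where Six2 maintains the progenitors of the nephron. Most of these genes also have roles elsewhere: Lhx1 in mesendoderm and the anterior visceral endoderm, Sall1 in ESCs, Wt1 in mesothelium, Osr2 in limb and palate mesenchyme, and Gata3 in trophoblast.

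Promoters from RefSeq (GRCm38.p6, 250 bases before to 50 after a start site) were matched for Pax2, Pax8, Lhx1, Six2, Sall1 and Gata3, 6 of the 10 members. The 3 shown belong to the members that were lower in shDis3l2 late in differentiation (Lhx1, Sall1) and to Six2, whose time course was most like that of Lhx1 among the members. All 3 lie on the minus strand and are written 5′ to 3′ along the gene. Of the 3 promoters listed for Sall1, the window shown has its start site at the 5′ end of the counted gene. The other Sall1 windows are not described. The matched Gata3 start site, not shown, lies 11434 bases from the 5′ end of that gene as counted. The regions are chr11:84525485-84525784 for Lhx1, chr8:89044113-89044412 for Sall1 and chr17:85688205-85688504 for Six2. Capitals mark matches, on either strand, to the GC box GGGCGG, the CCAAT box CCAAT, the TATA box TATAAA and the cyclic AMP response element half-site TGACG, and none of the marked matches overlap.
Lhx1: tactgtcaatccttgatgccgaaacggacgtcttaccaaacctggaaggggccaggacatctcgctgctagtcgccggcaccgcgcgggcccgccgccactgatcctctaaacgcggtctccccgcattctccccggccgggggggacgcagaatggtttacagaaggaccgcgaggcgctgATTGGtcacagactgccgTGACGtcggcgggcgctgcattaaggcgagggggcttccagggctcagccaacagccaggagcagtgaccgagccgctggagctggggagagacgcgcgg
Sall1: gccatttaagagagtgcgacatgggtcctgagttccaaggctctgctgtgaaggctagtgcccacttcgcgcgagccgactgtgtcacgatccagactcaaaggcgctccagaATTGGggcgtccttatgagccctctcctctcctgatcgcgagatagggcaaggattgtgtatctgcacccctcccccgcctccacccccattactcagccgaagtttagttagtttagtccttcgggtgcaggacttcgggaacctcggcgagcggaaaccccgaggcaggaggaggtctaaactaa
Six2: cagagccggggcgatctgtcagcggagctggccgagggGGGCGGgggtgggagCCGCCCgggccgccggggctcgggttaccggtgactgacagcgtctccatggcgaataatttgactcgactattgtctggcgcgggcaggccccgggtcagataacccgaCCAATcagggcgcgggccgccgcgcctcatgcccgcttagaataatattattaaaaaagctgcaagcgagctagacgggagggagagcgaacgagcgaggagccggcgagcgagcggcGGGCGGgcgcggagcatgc
The Lhx1 window held 1 CCAAT box and 1 TGACG match, the Sall1 window 1 CCAAT box, and the Six2 window 3 GC boxes and 1 CCAAT box, and no TATAAA match was found in any of the 3. Over 32851 promoter windows of the same length, 35.7% held the GC box, 37.4% the CCAAT box, 13.6% TATAAA and 20.8% TGACG. A match is a description of letters and not a bound site.

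The libraries held between 7178712 and 39888099 reads counted on genes, and levels are given as CPM, the reads of a gene scaled to a common library total. Dis3l2 itself was measured at 28.7, 15.8, 22.01, 23.8, 20.2, 19.2 and 19.7 CPM in shLacZ from d0 to d12 and at 3.93, 4.44, 7.05, 13.1, 19.6, 18.3 and 14.9 CPM in shDis3l2. The knockdown library held 13.7% of the control level at d0, 55.2% at d6 (interval of the ratio 0.449 to 0.675), but 97.1% at d8 and 94.98% at d10, where the 95% intervals of the ratio included 1, and 75.4% at d12 (interval of the ratio 0.609 to 0.934). The differences at d8 and d10 described below were thus measured when the targeted transcript was not detectably lower in the libraries labelled shDis3l2. At d0 the median gene was lower in shDis3l2 by 0.32 (log2) with library totals, against medians from -0.07 to 0.05 on the other days, so d0 folds are read against that shift.

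**Figure D1:**
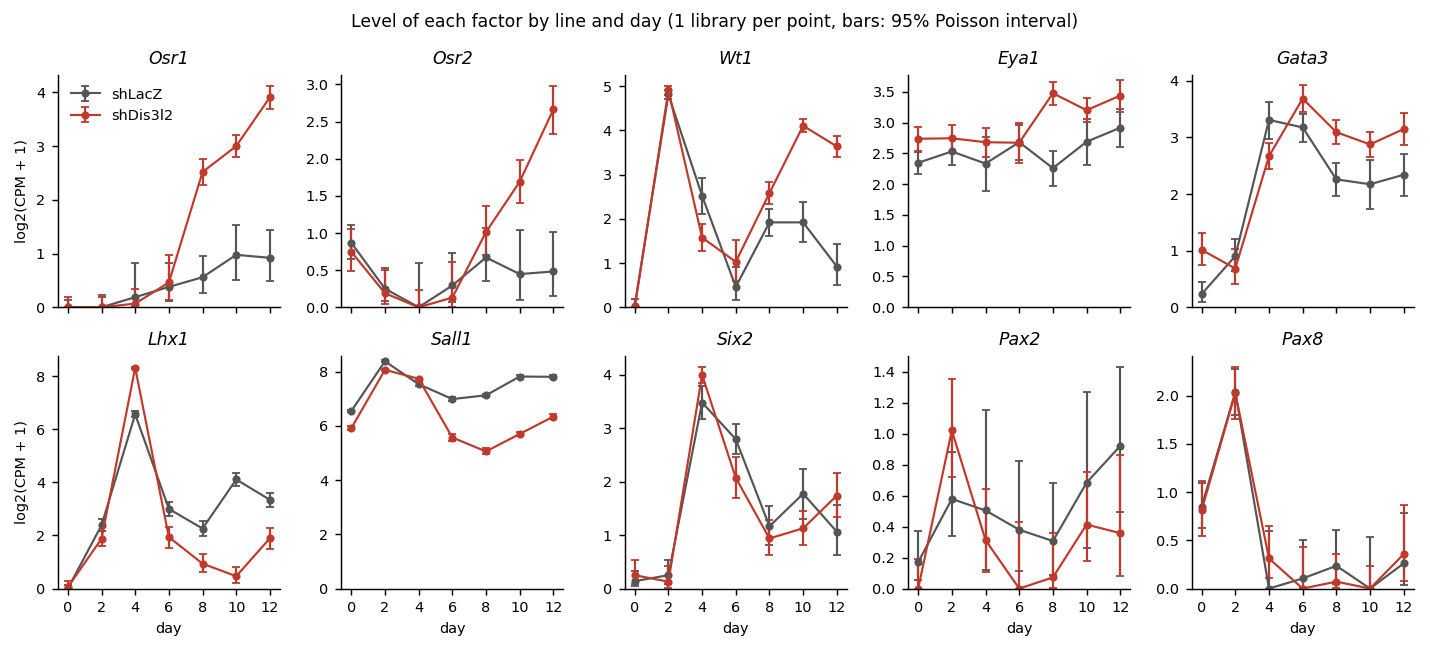
Level of each of the 10 genes, as log2(CPM + 1), against day of differentiation in shLacZ and shDis3l2, with 1 library per point and bars for the 95% Poisson counting interval. From d8 the Osr1 and Wt1 points of shDis3l2 lie above those of shLacZ and the Sall1 and Lhx1 points below, and Lhx1 peaks at d4 in both lines.

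Osr1 (ENSMUSG00000048387, GRCm38 chromosome 12, 9570116 to 9581500, plus strand) encodes an odd-skipped zinc finger factor needed for the intermediate mesoderm. Its counts in shLacZ were 0, 0, 1, 4, 8, 8 and 9 from d0 to d12, and in shDis3l2 0, 0, 1, 4, 93, 148 and 150. In CPM this was 0.473, 0.968 and 0.893 at d8, d10 and d12 in shLacZ against 4.73, 7.01 and 14.05 in shDis3l2. Up to d6 no library held more than 4 Osr1 reads, and from d8 the lines were far apart. The fold of shDis3l2 over shLacZ was 10.0 at d8 (95% Clopper-Pearson interval 4.87 to 23.8), 7.24 at d10 (3.58 to 17.1) and 15.7 at d12 (8.07 to 35.1). Within shDis3l2 the level rose 12.6-fold (4.74 to 47.0) from d6 to d8 and 2.00-fold from d10 to d12, while in shLacZ no late step between days left an interval free of 1.

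Osr2 (ENSMUSG00000022330, chromosome 15, 35296098 to 35303304, plus strand), the paralog of Osr1, came later. Its counts in shLacZ were 33, 5, 0, 3, 10, 3 and 4, and in shDis3l2 18, 3, 0, 1, 20, 47 and 57. The gene was thus read in ESCs of both lines, was at 0 at d4 in both, which allows a level of up to 0.418 CPM in shLacZ and of 0.145 in shDis3l2, and at d10 and d12 was read far more often in shDis3l2. Its fold was 1.72 at d8 (0.768 to 4.11), where the difference was not detectable at this depth, 6.13 at d10 (1.97 to 30.8, on 3 control reads) and 13.5 at d12 (4.98 to 51.1). Over the 14 libraries, Osr1 and Osr2 had a Pearson r of 0.88 on log2(CPM + 1), given as a description since the libraries share line, day and depth.

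Wt1 (ENSMUSG00000016458, chromosome 2, 105126529 to 105173616, plus strand) encodes a zinc finger factor of the nephron progenitors, podocytes and mesothelium, and it had a first wave at d2. At d2 it reached 27.1 CPM in shLacZ, against 28.9 in shDis3l2, on 714 and 618 reads, and the fold of 1.07 had an interval of 0.957 to 1.19. From d4 to d12 it was then at 4.74, 0.376, 2.78, 2.78 and 0.893 CPM in shLacZ and at 1.98, 1.04, 4.99, 16.2 and 11.4 CPM in shDis3l2. The first wave was of one height in both lines within counting error, its decline by d4 went further in shDis3l2 (fold 0.418, 0.259 to 0.680), and both lines then rose again from d6 to d8, by 7.40-fold in shLacZ (2.96 to 23.8) and 4.81-fold in shDis3l2 (2.57 to 9.95). From d8 to d10 shDis3l2 rose further, by 3.25-fold (2.59 to 4.11), while the shLacZ step was 1.001 (0.580 to 1.68). The folds were 1.79 at d8 (1.25 to 2.60), 5.82 at d10 (3.81 to 9.30) and 12.8 at d12 (6.52 to 28.7).

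Eya1 (ENSMUSG00000025932, chromosome 1, 14168954 to 14310235, minus strand), a phosphatase and transcriptional coactivator that works with Six2, was read in every library. It was measured at 4.09, 4.78, 4.04, 5.41, 3.79, 5.45 and 6.55 CPM in shLacZ and at 5.67, 5.70, 5.41, 5.37, 10.1, 8.19 and 9.83 CPM in shDis3l2. The shLacZ values moved within a narrow band, and the 3 shDis3l2 values from d8 lay above every shLacZ value. Its largest fold was 2.67 at d8 (2.01 to 3.60), followed by 1.504 at d10 (1.08 to 2.14) and 1.502 at d12 (1.09 to 2.08). At d0 the fold was 1.39 (1.10 to 1.74), on the day with the shifted median.

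Gata3 (ENSMUSG00000015619, chromosome 2, 9857078 to 9890034, minus strand), a zinc finger factor of the nephric duct and the trophoblast, was measured at 0.175, 0.872, 8.92, 8.04, 3.79, 3.51 and 4.07 CPM in shLacZ. In shDis3l2 it was at 1.02, 0.607, 5.36, 11.9, 7.53, 6.35 and 7.87 CPM. Both lines rose from d2 to d4, by 10.2-fold in shLacZ and 8.83-fold in shDis3l2, and shDis3l2 rose further to d6, by 2.21-fold (1.70 to 2.88), while the shLacZ step from d4 to d6 was 0.902 (0.656 to 1.25). The fold passed from 0.602 at d4 (0.438 to 0.832) to 1.48 at d6 (1.13 to 1.93), 1.99 at d8 (1.47 to 2.71), 1.81 at d10 (1.203 to 2.80) and 1.93 at d12 (1.32 to 2.88). At d0 it was 5.81 (2.47 to 15.8), on 7 and 27 reads. The protein-coding gene 4930412O13Rik lies within Gata3 on the opposite strand and held at most 30 reads in a library, and the strand setting of the counting is not given in the sources used here.

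Lhx1 (ENSMUSG00000018698, chromosome 11, 84518284 to 84525535, minus strand), the LIM homeodomain factor of mesendoderm and nephric duct, went both ways. In shLacZ it was at 0, 4.21, 93.5, 6.99, 3.79, 16.2 and 9.12 CPM from d0 to d12. In shDis3l2 it was at 0.0378, 2.66, 316, 2.83, 0.916, 0.379 and 2.72 CPM. At d4 shDis3l2 held the higher peak, and on every later day shLacZ held more. The fold was 0.633 at d2 (0.452 to 0.879), 3.38 at d4 (3.13 to 3.67), 0.404 at d6 (0.259 to 0.616) and 0.242 at d8 (0.135 to 0.413). At d10 the library labelled shDis3l2 held 8 reads against 134, a level 42.8-fold lower (fold 0.0234, 0.00988 to 0.0474), and at d12 the fold was 0.298 (0.189 to 0.456). The rise from d2 to d4 was 22.2-fold in shLacZ (18.1 to 27.4) and 119-fold in shDis3l2 (91.6 to 157), and the drop from d4 to d6 was 13.4-fold and 112-fold. In shLacZ the level rose again by 4.28-fold from d8 to d10 (3.16 to 5.86), which shDis3l2 did not show until d12, when it rose 7.17-fold over d10 (3.20 to 18.1). Per exon length (RPKM, here the CPM over the exon length in kilobases), Lhx1 at d4 was the highest of the 10 members in shDis3l2, at 77.7 against 40.4 for Sall1, whereas in shLacZ Sall1 was the highest, at 35.2 against 23.0 for Lhx1.

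Sall1 (ENSMUSG00000031665, chromosome 8, 89027235 to 89044162, minus strand), a spalt-like zinc finger factor of metanephric mesenchyme and ESCs, was the most deeply read member, with 494 to 8779 reads per library. It was measured at 92.4, 333, 185, 126, 139, 225 and 223 CPM in shLacZ and at 59.2, 268, 213, 46.6, 32.3, 51.1 and 80.3 CPM in shDis3l2. It peaked at d2 in both lines, and from d6 every shDis3l2 value lay below every shLacZ value. The fold was lowest at d10 (0.227, 0.210 to 0.244) and d8 (0.232, 0.213 to 0.254), with 0.369 at d6 (0.333 to 0.408) and 0.359 at d12 (0.332 to 0.389). At d4 the fold was 1.15 (1.08 to 1.22). Genes of chromosome 8 as a whole were lower in shDis3l2 on every day, with a median of -0.36 (log2) at d6 and -0.37 at d10. Relative to that median, Sall1 was still lower from d6, with log2 differences of -1.08 (d6), -1.81 (d8), -1.77 (d10) and -1.15 (d12).

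Six2 (ENSMUSG00000024134, chromosome 17, 85684277 to 85688274, minus strand), the homeobox factor of self-renewing nephron progenitors, peaked at d4 with Lhx1. Its counts were 4, 5, 73, 79, 21, 20 and 11 in shLacZ and 5, 2, 310, 34, 18, 25 and 25 in shDis3l2, which is 10.2 and 15.0 CPM at d4. Its direction changed from day to day. The fold was 1.47 at d4 (1.14 to 1.93), 0.540 at d6 (0.350 to 0.816), 0.737 at d8 (0.370 to 1.45), 0.489 at d10 (0.261 to 0.929) and 2.15 at d12 (1.02 to 4.83). The d12 interval reached below 1 when the totals were scaled by TMM or DESeq2 factors, so no direction is given for that day. Lhx1 and Six2 had a Pearson r of 0.84 over the 14 libraries on log2(CPM + 1).

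Pax2 (ENSMUSG00000004231, chromosome 19, 44756045 to 44837871, plus strand) and Pax8 (ENSMUSG00000026976, chromosome 2, 24420560 to 24475599, minus strand) encode paired-box factors that act together in specifying the nephric lineage. Pax2 counts were 5, 13, 3, 4, 4, 5 and 9 in shLacZ and 0, 22, 5, 0, 1, 7 and 3 in shDis3l2. Pax8 counts were 32, 82, 0, 1, 3, 0 and 2 in shLacZ and 20, 66, 5, 0, 1, 0 and 3 in shDis3l2. Pax8 was read mainly at d0 and d2 in both lines, with a d2 fold of 0.992 (0.706 to 1.39), and from d4 it was at or near the floor. For Pax2 the d10 fold was 0.548 (0.150 to 2.19) and the d12 fold 0.315 (0.0548 to 1.26, on 3 reads in shDis3l2), so a difference between the lines was not detectable at this depth on these days. At d2, the day with the most Pax2 reads, the fold was 2.09 (1.006 to 4.51). With TMM factors that interval no longer lay above 1, so no direction is given for d2. At d0 and d6, where shDis3l2 held no Pax2 read and shLacZ held 5 and 4, the counting intervals of the levels overlapped.

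Counted by day, a member passed the fold criterion if the lines differed by at least 3-fold and a library held at least 1 CPM. For both, 0.25 scaled by the library total over the mean total was added to each count. At d0, 1 of the 3 members compared was higher by this criterion (Gata3), where 0.584% of protein-coding genes compared were, and none was lower, where 2.25% were. At d2 no member passed, beside 0.114% higher and 0.129% lower over all genes. Lhx1 alone was higher at d4, beside 0.361%, with none lower beside 1.68%, and none passed at d6, beside 2.7% higher and 4.23% lower. At d8 Osr1 was higher, beside 5.47%, and 2 members (Lhx1 and Sall1) were lower, beside 3.71%. At d10 there were 3 higher (Osr1, Osr2, Wt1), beside 8.68%, and 2 lower (Lhx1 and Sall1), beside 3.12%. At d12 there were 3 higher, the same genes, beside 8.07%, and 1 lower (Lhx1), beside 1.5%. The 1 CPM minimum was met by 3 members at d0, 6 each at d2, d4 and d6, and 8 (all but Pax2 and Pax8) at d8, d10 and d12, and the percentages are over all genes that met it. Osr1 and Osr2 at d8, d10 and d12 met it through the shDis3l2 library alone. So did Gata3 at d0, Pax2 at d2 and Wt1 at d6 and d12. Lhx1 at d8 and d10 and Six2 at d8 met it through the shLacZ library alone. A gene of that kind could pass in 1 direction only, so these counts support nothing by themselves.

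**Figure D2:**
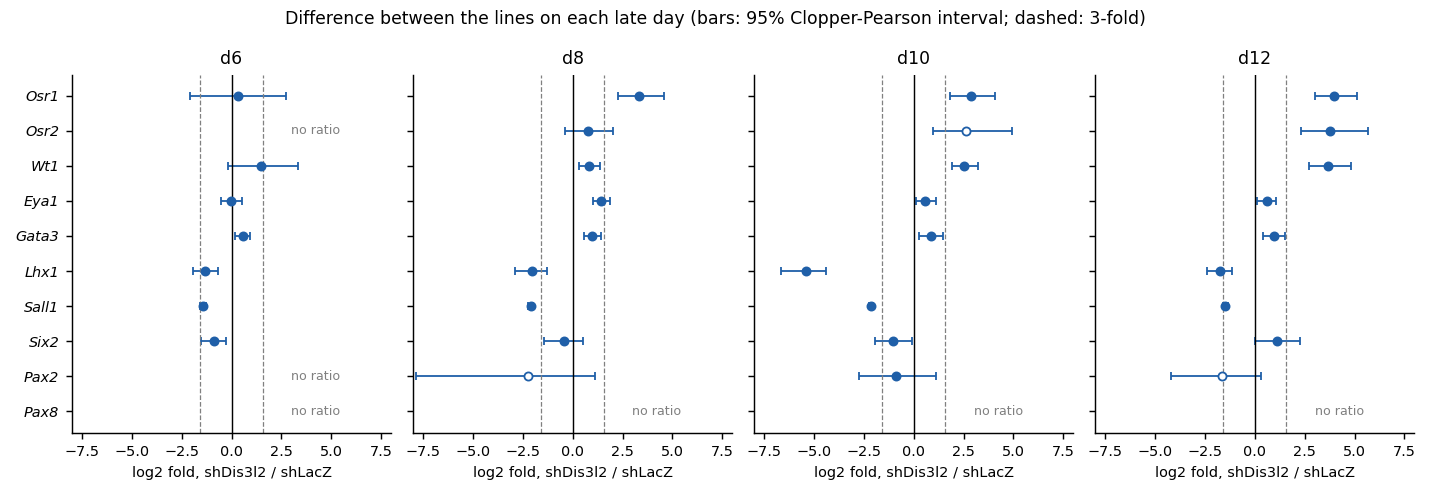
Log2 fold of shDis3l2 over shLacZ for the 10 genes (rows) at d6, d8, d10 and d12 (panels), with bars for the 95% Clopper-Pearson counting interval, a solid line at 0 and dashed lines at 3-fold. Open points rest on 1 to 3 reads in a library, and "no ratio" marks days at which both libraries held at most 3 reads or 1 held none. Osr1 lies right of the upper dashed line from d8, Osr2 and Wt1 do so at d10 and d12, Sall1 lies left of 0 on each day, and Lhx1 reaches its lowest value at d10.

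By the looser criterion that the counting interval of the fold excludes 1, more members were set apart, but so were many genes. At d10, 5 of the 8 members compared were higher, beside 34.1% of all genes compared, and 3 were lower, beside 33.5%. At d12, 6 of 8 were higher, beside 31.5%, and 2 were lower, beside 24.2%, and with TMM or DESeq2 factors 5 were higher, without Six2. At d8, 4 of 8 were higher, beside 36.8%, and 2 were lower, beside 33.5%. With so many genes called, this criterion alone sets nothing apart for the kidney factors. On the earlier days the members higher and lower numbered 2 and 1 of 3 at d0 (15.5% and 61.5% of all genes), 1 and 2 of 6 at d2 (17.2% and 30.8%), 3 and 2 of 6 at d4 (18.4% and 22.4%) and 1 and 3 of 6 at d6 (29.1% and 29.4%). The 1 CPM minimum applied here too, so a member that met it through 1 line alone, as Pax2 at d2, could be called in 1 direction only.

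The lines were also compared over d6, d8, d10 and d12 together, with day as a block, by edgeR's quasi-likelihood test with Benjamini-Hochberg adjustment over 17164 genes. In this fit the days of a single time course stand in for replicates, and its p-values say whether the lines differed steadily over these 8 libraries and not whether other cultures would differ. There were 4 members higher, beside 19.6% of all genes, and 2 lower, beside 18.7%, out of 8 that were tested, since Pax2 and Pax8 were removed as too low. Osr1 was higher by 3.08 (log2, SE 0.43, adjusted p = 0.00246), Wt1 by 2.10 (SE 0.45, adjusted p = 0.0112), Osr2 by 1.94 (SE 0.64, adjusted p = 0.0490) and Gata3 by 0.82 (SE 0.16, adjusted p = 0.00738). Osr2 was at most at 0.592 CPM in shLacZ on these days and passed the filter on low counts through shDis3l2 alone. Its call thus supports nothing by itself. Sall1 was lower, with a log2 difference of -1.80 (SE 0.14, adjusted p = 0.000453), and so was Lhx1, at -2.46 (SE 0.60, adjusted p = 0.0180). Eya1 missed the threshold at 0.65 (SE 0.24, adjusted p = 0.0692), as did Six2 at -0.40 (SE 0.37, adjusted p = 0.423). Gata3, whose fold was at most 1.99 on these days, thus passed, whereas Eya1, with a fold of 2.67 at d8 and of 0.993 at d6, did not.

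Some of these calls were lost when a day was left out, and the calls over all genes then also dropped, to 3449 without d8 and 3336 without d10, from 6574. Osr2 lost its call when d8, d10 or d12 was left out, with adjusted p-values of 0.0701, 0.189 and 0.185, and also with DESeq2 (0.0950) and library totals in place of TMM (0.0509), so it held in 2 of 8 alternative fits. Its log2 difference was then 2.55 without d8, 1.71 without d10 and 1.18 without d12. Wt1 lost its call without d10 (0.0760), with a difference of 1.90, and Lhx1 without d8 (0.0686), with -2.60, so these 2 differences were about as large as with all 4 days. Leaving out d6 brought Eya1 past the threshold (0.0222). With all 7 days in the fit, Osr1 alone of the members passed, beside 1147 genes in all instead of 6574. Osr1 passed in each of the 8 alternative fits, with adjusted p-values of at most 0.0330.

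Ordered by level per exon length at d12, shLacZ had Sall1 first at 42.4 RPKM, then Lhx1 at 2.24, Gata3 at 1.02, Eya1 at 0.838, Six2 at 0.515 and Osr1 at 0.432, followed by Osr2 at 0.230, Pax2 at 0.165, Wt1 at 0.144 and Pax8 at 0.0327. In shDis3l2, Sall1 was still first at 15.2 RPKM, but Osr1 followed at 6.80, then Osr2 at 3.10, Gata3 at 1.98, Wt1 at 1.84, Eya1 at 1.26, Six2 at 1.10 and Lhx1 at 0.667, with Pax2 at 0.0519 and Pax8 at 0.0463 last. Lhx1 thus moved from the second place to the eighth and Osr1 from the sixth to the second. In shLacZ the counting intervals of neighbours overlapped from Gata3 downward at every step, so only Sall1 and Lhx1 had a place of their own. In shDis3l2 they overlapped for Osr2 and Gata3, Gata3 and Wt1, Eya1 and Six2, Six2 and Lhx1, and Pax2 and Pax8, and Sall1 and Osr1 had places of their own.

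The other genes of kidney development were read from 3 lists named by stage. Of 20 genes of the metanephric mesenchyme and nephron progenitors, 18 were tested over d6 to d12, and 11 were higher and 2 lower (Cited1 and Crym), where 19.6% of all genes were higher and 18.7% lower in this fit. Their median log2 fold was 1.63 at d10 and 1.499 at d12, with 9 and 8 of 18 compared at least 3-fold higher and none lower. Over all genes, 8.68% and 8.07% were higher by this fold and 3.12% and 1.5% lower. Several of the 18, such as Gdnf, Hoxc11 and Hoxd11 on both days, met the 1 CPM minimum through shDis3l2 alone. Those genes could not be called lower, so these counts support nothing by themselves. Gdnf also passed the filter of the d6 to d12 fit through shDis3l2 alone. Of 15 genes of the nephric duct and ureteric bud, 13 were tested, with 2 higher (Gfra1 and Npnt) and 3 lower (Etv4 and Etv5 among them), and the median was -0.26 at d10 and -0.19 at d12. Of 13 genes of the early nephron, 12 were tested, with 1 higher (Notch2) and 6 lower (Fgf8, Dll1, Irx2, Hnf4a and Cdh6 among them), and the median was -1.14 at d10 and -0.62 at d12. The median over all protein-coding genes was 0.01 at d10 and 0.05 at d12.

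Of all listed genes, 8 were at least 3-fold changed in the same direction at both d10 and d12, and all 8 were higher in shDis3l2. Over all genes compared, 8.68% were higher and 3.12% lower by this fold at d10 and 8.07% and 1.5% at d12. Those are single-day shares. The share over all genes for both days together is not given, so the count of 8 supports nothing by itself. Hoxd11, Meox1 and Meox2 on both days and Hoxa11 at d12 met the 1 CPM minimum through shDis3l2 alone and could pass only as higher. Gfra1, the co-receptor through which the duct senses GDNF, was at 2.42 and 24.1 CPM at d10 in shLacZ and shDis3l2 and at 2.18 and 25.6 CPM at d12, a fold of 9.96 and 11.7. Gdnf itself, the ligand made by the mesenchyme, was at 0.595 and 2.90 CPM at d12, with a log2 difference of 1.48 over d6 to d12 (edgeR adjusted p = 0.0375), while the receptor Ret did not pass (-0.87, adjusted p = 0.0556). Among the posterior Hox genes, which pattern the metanephric mesenchyme and also the limb, Hoxa10 was 13.97-fold and 17.8-fold higher at d10 and d12, Hoxa11 18.2-fold and 27.2-fold, and Hoxd11 23.1-fold and 5.80-fold, although Hoxd11 did not pass over d6 to d12 (adjusted p = 0.0596). Gas1, a cell-surface partner of hedgehog and GDNF signals, was 11.8-fold and 7.74-fold higher. Itga8, the mesenchymal integrin subunit, was 3.66-fold and 3.34-fold higher. The homeobox genes Meox1 and Meox2 were low, Meox1 with a fold of 28.6 at d10 on 1 control read (4.97 to 1143) and 4.88 at d12, and Meox2 with 3.39 and 6.61 on 3 control reads each.

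**Figure D3:**
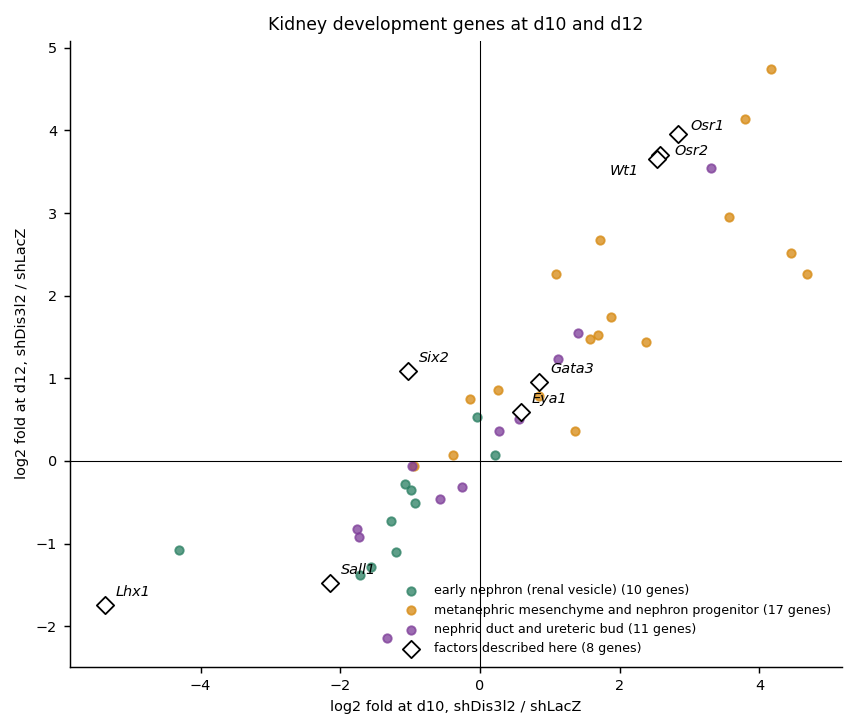
Log2 fold of shDis3l2 over shLacZ at d10 (horizontal) against that at d12 (vertical) for genes of the 3 kidney lists, colored by list, and for 8 of the 10 factors (open diamonds), each with at least 1 CPM in a library of both days. Genes of the metanephric mesenchyme list lie mostly above 0 on both axes, those of the early nephron list mostly below, and Six2 lies apart, below 0 at d10 and above it at d12.

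Among the early nephron genes that were lower, Fgf8, a ligand needed for nephron formation and earlier made in mesendoderm, had a fold of 0.0782 at d8 on 22 and 2 reads and of 0.0477 at d10 on 41 and 5 reads (0.0147 to 0.121). At d12 its fold was 0.472 (0.207 to 1.02, on 22 and 11 reads), and at d4 it had been higher in shDis3l2, at 45.3 against 23.8 CPM. Hnf4a, a nuclear receptor of proximal tubule, visceral endoderm and liver, was at 101 and 30.5 CPM at d10 in shLacZ and shDis3l2 and at 88.4 and 33.8 CPM at d12. Of the duct list, Etv5, an ETS factor downstream of receptor tyrosine kinases such as RET, was at 93.0 and 28.0 CPM at d10.

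Markers of other cell types moved with these groups. Over d6 to d12, the summed level of the 6 visceral endoderm markers (Afp, Ttr, Apoa1, Amn, Cubn and Apob) was 2706 to 6169 CPM in shLacZ and 519 to 1662 CPM in shDis3l2, and all 6 of the 6 were lower in the edgeR fit, to be read, as the counts that follow, against 19.6% of all genes higher and 18.7% lower. Of 9 mesendoderm and anterior visceral endoderm markers 6 were lower and none was higher, with sums of 88.7 to 182 CPM in shLacZ and 34.2 to 81.4 CPM in shDis3l2, none of the 9 at 0 from d6. Of 9 lateral plate and limb mesenchyme markers 7 were higher (Prrx1, Prrx2, Twist1, Twist2, Tbx5, Hand2 and Foxf1) and none was lower, with sums of 342 to 548 CPM and 418 to 797 CPM. These lists cover cell types in which Lhx1 and Hnf4a, or Osr1, Osr2 and the Hox genes, are also known to be expressed. The part of these cell types in the members' differences was not tested. In bulk RNA, fewer cells of a type and less RNA per cell cannot be told apart.

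**Figure D4:**
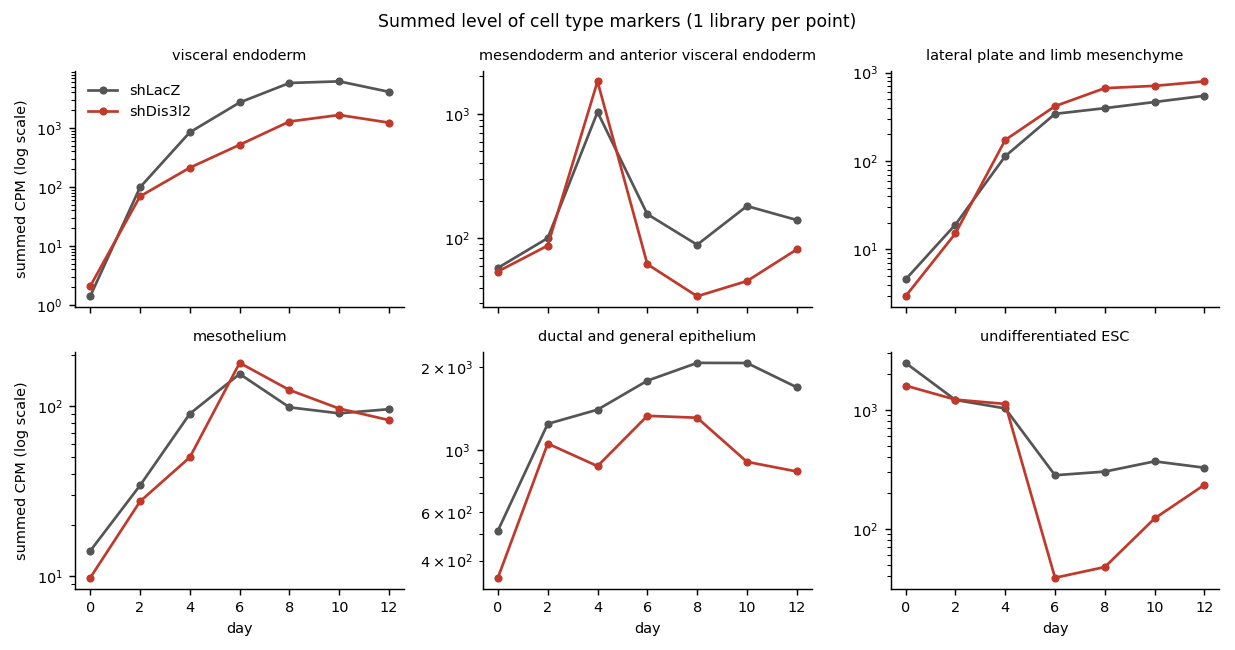
Summed level (CPM, log scale) of the markers of 6 cell types (panels) against day in shLacZ and shDis3l2, with 1 library per point. Visceral endoderm markers run lower in shDis3l2 from d2 on, mesendoderm markers peak at d4 in both lines, and lateral plate and limb mesenchyme markers reach 797 CPM in shDis3l2 at d12 against 548 CPM in shLacZ.

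At d4, when Lhx1 was 3.38-fold higher in shDis3l2, the summed mesendoderm markers stood at 1827 CPM in that line against 1036 in shLacZ, with a median log2 fold of 0.71 over 9 genes and none of them past 3-fold. Of the other lists over d6 to d12, ESC markers had 4 of 5 lower and sums of 282 to 369 CPM in shLacZ against 38.9 to 235 CPM in shDis3l2, and epithelial markers had 4 of 5 lower, with sums of 1689 to 2069 CPM against 839 to 1332 CPM. Mesothelial markers had 1 of the 4 tested higher (Upk1b), with sums of 90.8 to 155 CPM against 82.8 to 180 CPM. Msln was at 0 at d10 and d12 in shLacZ and at d6 in shDis3l2. By the 3-fold criterion, 2 of the 4 mesothelial markers compared at d10 were higher and none lower, beside 8.68% and 3.12% of all genes. At d12, 2 of 5 were higher and 1 lower, beside 8.07% and 1.5%, and Msln could pass only as higher. Sall1 is also expressed in ESCs and Wt1 in mesothelium, and the part of these cell types in their differences was not tested. Neural markers had 3 of 7 lower (Sox1, Pax6 and Pax5), with sums of 14.3 to 60.2 CPM against 12.2 to 95.6 CPM and Wnt1 at 0 in 5 of the 8 libraries. Surface ectoderm and trophoblast markers had 1 of 6 higher (Krt14) and 2 lower (Cdx2 and Eomes, the latter shared with the mesendoderm list), with sums of 37.5 to 111 CPM against 19.0 to 71.6 CPM and Krt5 at 0 in 3 of the 8 libraries.

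The protein-coding genes whose time courses were most like those of Osr1 and Lhx1 were found by Pearson r of log2(CPM + 1) over the 14 libraries, among 12853 genes that reached 5 CPM in 1 library. For Osr1 they were Ifit3b (0.985), Tgfb3 (0.984), Sardh (0.984), Sncaip (0.982) and Srpx (0.976). Tgfb3, a TGF-beta ligand, was at 67.4 CPM in shDis3l2 at d12 against 2.38 in shLacZ, and Srpx at 10.3 against 0.298 CPM. For Lhx1 they were Fgf8 (0.973), Apln (0.966), Slc44a5 (0.966), Alox15 (0.961) and Trim67 (0.955). Apln, a secreted peptide ligand, was at 70.6 and 121 CPM at d4 and at 11.02 and 1.42 CPM at d10 in shLacZ and shDis3l2. Alox15, a lipoxygenase, had nearly one level at d4 in both lines, 89.3 and 88.6 CPM, and 13.7 and 0.758 CPM at d10, so it shared the late difference of Lhx1 but not that at d4.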

How the data were processed

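PolyA RNA of 14 samples was sequenced. Subread (alignment to GRCm38) and featureCounts (reads per gene) were used by the authors, who deposited unnormalized counts. They also deposited CPM values for 16181 genes, which equal the count plus 0.25 over the total of the listed genes. The strand setting of the counting is not given in the sources used here. Columns named shm5 in the files are those labelled shDis3l2, and 0 columns of values could not be mapped to a sample. Gene names came from the deposited CPM table and gene types also from GENCODE M21, and the exon length column gave RPKM.

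CPM used each library's total over all genes (7178712 to 39888099 reads), so that the floor of 3 reads was worth between 0.0752 and 0.418 CPM. Single-day folds are ratios of CPM with exact Clopper-Pearson 95% intervals, and no fold was given when both libraries held at most 3 reads. Reads were not marked by molecule and may be PCR copies, so intervals and floors cover counting error only. Days d6 to d12 (8 libraries) were fitted with edgeR 4.0.16 in R 4.3.3 (TMM, filterByExpr on the design, quasi-likelihood test, day as a block, adjusted p threshold 0.05), which also gave each SE as the log2 difference over the square root of F. On simulated counts for 17164 genes of this comparison, the fit recovered 100 of 100 planted 4-fold and 72 of 100 planted 2-fold changes. There were 18 other calls. The planted genes were well read, all genes shared a fixed spread, and each planted fold was the same on every day. These rates thus do not cover sparsely read members such as Osr2, folds that vary by day, or days standing in for replicates. DESeq2 1.42.0, other scalings, other minimum levels and other sets of days were tried as alternatives. Other steps used Python 3.11.15 with pandas 2.3.3, numpy 2.4.6, matplotlib 3.10.9 and scipy 1.17.1.

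All 10 members and Dis3l2 are named, with the 5 genes most like Osr1 and Lhx1 and the genes of 3 kidney lists (nephric duct and ureteric bud, metanephric mesenchyme and nephron progenitor, early nephron) that differed 3-fold or more in 1 direction on both d10 and d12. Other listed genes are named where they passed the d6 to d12 fit or, as Ret, Gdnf, Hnf4a, Etv5 and Fgf8, were chosen after their values were seen. The members, the lists and the 8 marker lists were chosen with earlier results of these data known. Library preparation batches are not given in the sources used here. Some listed genes are counted but not reported here by name.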

Additional observations from a re-analysis of the deposited data

Results flagged for a closer look

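Lhx1 differed between the lines in opposite directions on different days. Its fold of shDis3l2 over shLacZ was 3.38 at d4 and 0.242 at d8, 0.0234 at d10 and 0.298 at d12. That difference between d4 and the late days was not tested, since each value rests on a single pair of libraries.

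Signal was also read in noncoding genes next to 2 of the members that no comparison above uses. Wt1os is annotated on the strand opposite to Wt1 and starts just upstream of it. Wt1os held 0, 22, 0, 0, 1, 0 and 1 reads in shLacZ from d0 to d12 and 0, 17, 0, 0, 1, 31 and 11 in shDis3l2. At d10 it was at least 4.04-fold higher in shDis3l2 against a floor of 3 counts in the shLacZ library, and its d12 ratio was 10.4 (1.51 to 447, on 1 control read). Its reads stood mainly at d2 in both lines and at d10 and d12 in shDis3l2. Lhx1os, on the strand opposite to Lhx1 and starting just upstream of it, held 14 reads in shLacZ and 136 in shDis3l2 at d4, a fold of 3.37 (1.94 to 6.33), and 11 and 3 reads at d10, a fold of 0.107 (0.0191 to 0.404). The deposited gene coordinates of these 2 pairs do not overlap, and the strand setting of the counting is not given in the sources used here.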

How the results depend on the processing

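No fold whose interval excluded 1 and no called difference changed direction under the alternatives tried. Folds near 1 crossed it under other scalings: Osr2 at d0 (to 1.08, DESeq2 factors), Pax8 at d0 (1.08 with TMM, 1.23 with DESeq2 factors) and d2 (1.01, deposited CPM) and Eya1 at d6 (1.004, DESeq2 factors). Of the single-day folds 164 moved by less than their counting interval and 4 by more: Eya1 at d0 to 1.82 with DESeq2 factors, Sall1 at d0 to 0.732 with TMM and 0.839 with DESeq2 factors, and Sall1 at d4 to 1.23 with TMM. For the changed criteria in the rest of this paragraph no share over all genes is given, so these counts of members support nothing by themselves. With a fold criterion of 2 in place of 3, there was 1 member higher at d2 (Pax2) and at d6 (Wt1) and 1 lower at d4 (Wt1). Pax2 at d2 and Wt1 at d6 met the 1 CPM minimum through shDis3l2 alone and could pass only as higher. There were 2 lower at d6 and at d12 (Lhx1, Sall1) and 2 higher at d8 (Osr1, Eya1). Six2 also passed, as lower at d10 beside Lhx1 and Sall1 and as higher at d12 beside Osr1, Osr2 and Wt1. With no minimum CPM there were 2 higher at d0 (Lhx1, Gata3) and at d4 (Pax8, Lhx1) and 1 lower at d0 (Pax2). There were then 2 lower at d6 (Pax2, Pax8) and at d12 (Pax2, Lhx1) and 3 lower at d8 (Pax2, Lhx1, Sall1). Of these, Lhx1 at d0 and Pax8 at d6 rest on 1 read against 0. They pass only through the count added to each library and are not differences between the lines. Pax2 at d0 and d6 and Pax8 at d4 had 0 reads in 1 library and at most 5 in the other. With a minimum of 5 CPM there were 0 higher at d0 and d8, 2 higher at d10 (Osr1, Wt1) and 1 lower at d8 (Sall1). The deposited CPM values gave 2 lower at d12 (Pax2, Lhx1). With TMM factors 0 members, in place of Pax2, had an interval above 1 at d2.

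Over d6 to d12, leaving out each day in turn gave 2 to 5 members higher, 1 to 2 lower and 3336 to 6677 genes called in all, and the 7-day fit gave 1 higher, 0 lower and 1147 in all, against 6574. The cause was not tested. Without d10 the 2 higher were Osr1 and Gata3 (3336 genes in all), and without d8 the 1 lower was Sall1 (3449 in all). Of 64 fits of single members, 50 kept their side of the threshold, 12 lost it and 2 passed it. Depth limits Pax2, Pax8 and, in shLacZ, Osr1 and Osr2, which held at most 10 reads per late library. The labels give no replicate numbers, and the fit paired the libraries by day, as a block. The Pax8 log2 difference ran from -1.15 to 0.06 over the 3 fits that kept it, on at most 3 reads a library from d6.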

Other observations

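Among the 45 pairs of members, the highest Pearson r of log2(CPM + 1) over the 14 libraries after Osr1 with Osr2 (0.88) were Osr1 with Eya1 (0.85), Lhx1 with Six2 (0.84), Pax2 with Sall1 (0.77) and Six2 with Gata3 (0.71), and the lowest was Pax8 with Gata3 (-0.79). These are descriptions, since the libraries share line, day and depth. The 3 members with a d2 peak in both lines (Wt1, Pax8 and Sall1) rose together from d0, Sall1 by 3.60-fold in shLacZ and 4.52-fold in shDis3l2 and Pax8 by 3.87-fold and 4.08-fold. Six2 rose from d2 to d4 by 53.7-fold in shLacZ and 160.3-fold in shDis3l2, on 5 and 2 reads at d2.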
